A study of Mus musculus with 6 samples.

Results

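Histone genes were examined in whole-tumour RNA from mice given folinic acid (FA) or phosphate-buffered saline (PBS). The genes were taken by name from the deposited table. They comprise every gene whose symbol is H1f, H2ac, H2bc, H3c or H4c followed by a number, which are the systematic names of the linker histones and of the clustered core histones. This gave 70 genes of 55357, with 11 in class H1, 18 in H2A, 17 in H2B, 12 in H3 and 12 in H4, and no symbol occurred more than once. The pattern also takes in 8 genes that are not replication-dependent histones of dividing body cells. H1f0 and H1f10 encode replication-independent linker histones, and H1f6, H1f7, H1f8, H1f9, H2ac1 and H2bc1 are known from germ cells. The remaining 62 carry names of the replication-dependent kind. They include H2ac14, which the GENCODE release M21 annotation lists as an unprocessed pseudogene.

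Tumours were grown under the skin of C57BL/6J mice from 250000 cells of KPC1242, a mouse pancreatic ductal adenocarcinoma line. From day 8 to day 12 the mice received 2 mg of FA, a reduced folate, or PBS daily by gavage, and tumours were removed on day 14. The 3 FA and 3 PBS tumours each gave 1 library, and the labels do not state that each came from its own mouse. The p-values therefore set the difference between FA and PBS against the spread between tumours of a group. Whether that is a spread between mice is not known. KPC1242 is a single transplanted line, and nothing in the labels sets any other genotype difference between the groups. Values are TPM, a measure of transcript abundance scaled by transcript length and library, so levels of different genes can be compared. TPM keeps no read depth, and the precision of a low value is therefore unknown.

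Over all genes, 0 of the 15023 averaging 1 TPM or more passed an adjusted p of 0.05 in limma (Benjamini-Hochberg), and 192 had an unadjusted p under 0.05. The epithelial label held, since the 8 ductal markers led by keratin genes summed to between 5468 and 5884 TPM with FA and to between 4954 and 5844 TPM with PBS. FA replicate 3 stood apart from the other tumours. Its correlation with each of them, computed over genes (no independent replicates), ran from 0.949 to 0.968, against 0.981 to 0.987 among the other 5. The 8 fibroblast markers summed to 6548 TPM in it and to between 1844 and 3545 TPM elsewhere, and the 6 skeletal muscle markers to 1103 TPM against 12.7 to 160 TPM. The 8 macrophage markers summed to 2263 TPM in FA replicate 3 and to between 1112 and 1416 TPM elsewhere. The 6 endothelial markers summed to 222 TPM in it against 52.95 to 97.2 TPM. The 6 lymphocyte markers and the 6 male germ cell markers each averaged under 1 TPM. Differences of single histone genes and of their sums are therefore also given without FA replicate 3.

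Nucleosomes wrap DNA around core histones H2A, H2B, H3 and H4, and linker histone H1 binds where the DNA enters and leaves. Replication-dependent histone genes are switched on as cells enter S phase, when new DNA has to be packaged. Their mRNAs are unusual in that most end in a conserved stem-loop and carry no poly(A) tail. Stem-loop binding protein (SLBP) and the U7 small nuclear RNP direct the cleavage just after that stem-loop, and SLBP then accompanies the mRNA to translation and decay. Replication-independent histones, in contrast, are made throughout the cell cycle from ordinary polyadenylated mRNAs, and a number of clustered histone genes are known to yield a polyadenylated form as well.

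The stem-loop is the feature that sets this mRNA family apart, so it was searched for in the GENCODE release M21 transcripts of the genes (build GRCm38, 70 of 70 matched by Ensembl identifier). The search used the sense strand and the histone stem-loop consensus of 16 bases, with a stem of 6 paired bases and a loop of 4. It was found in 43 of the 70 genes, against 0.0595% of the other protein-coding genes of that annotation, or 13 genes. Of the 27 genes without a match, 11 have only coding sequence annotated, so the letters beyond the stop codon were not in the sequence searched. Others have little more, such as H2ac10, whose transcript of 399 bases holds a coding sequence of 390. That leaves no room for the 16 bases, so a missing match does not show that a gene lacks the element. The sites below come from 6 of the 7 genes above 1 TPM that hold one and from 3 genes below 1 TPM, and show that high and low genes carry the same element. Capitals mark the stem and loop.
H1f2: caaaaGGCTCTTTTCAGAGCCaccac
H4c9: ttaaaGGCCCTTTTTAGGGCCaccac
H2ac19: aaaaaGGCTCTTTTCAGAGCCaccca
H2bc8: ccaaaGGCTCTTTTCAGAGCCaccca
H4c8: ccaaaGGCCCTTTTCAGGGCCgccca
H3c8: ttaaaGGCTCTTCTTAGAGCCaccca
H1f4: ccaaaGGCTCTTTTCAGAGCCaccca
H2bc3: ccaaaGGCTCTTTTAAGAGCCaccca
H4c2: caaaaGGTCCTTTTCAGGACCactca

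The 43 sites took 8 forms. The form shown for H1f2, H2bc8 and H1f4 occurred in 24 genes of classes H1, H2A, H2B and H3. In class H4, 11 genes instead carried a stem with GGCCC or GGTCC at its start, and the loop varied between forms, as in H4c9 and H3c8. H2bc8 and H1f4 had the same 26 bases, yet H2bc8 averaged 2.76 TPM and H1f4 0.302 TPM. Genes with identical sites thus had different levels.

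Listed TPM values of most replication-dependent histone genes were low, and whether the libraries kept RNAs without a poly(A) tail was not tested. Of the 70 genes, 58 averaged under 1 TPM, and the median gene stood at 0.243 TPM. Among all genes listed, 72.9% averaged under 1 TPM, but S-phase genes, which mark the cells that make histone mRNA, had a median of 34.9 TPM over 38 genes. Only 4 histone genes reached 10 TPM, 8 stood between 1 and 10 TPM, 34 were above 0 in every tumour, and 12 were listed at 0 in all 6.

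**Figure D1:**
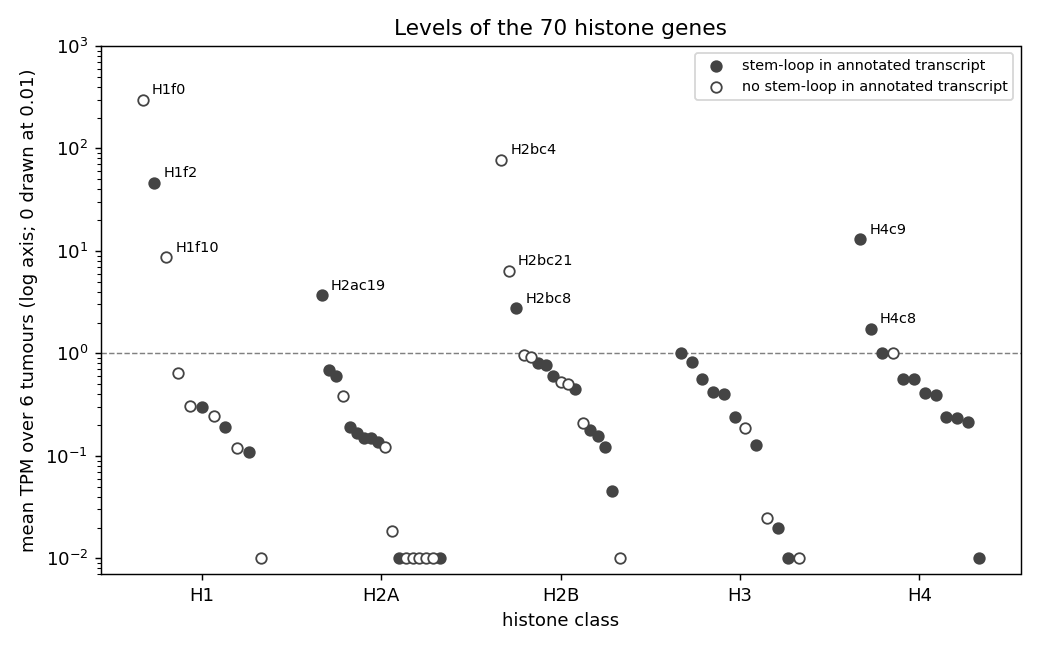
Mean TPM over the 6 tumours for each of the 70 histone genes, by class, on a log axis with genes listed at 0 drawn at 0.01 and a dashed line at 1 TPM. Filled points are genes with a stem-loop in the annotated transcript. Each class has between 1 and 4 genes above the line, led by H1f0, H2bc4 and H1f2, while 58 genes lie below it.

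In class H1 the level was set by replication-independent H1f0, the linker histone H1.0 of slowly dividing and differentiated cells, at 276.7 ± 42.9 TPM with FA (SD, n = 3) and 318 ± 28.9 TPM with PBS (SD, n = 3). H1f2, which encodes linker histone H1.2, followed at 44.4 ± 1.74 and 47.7 ± 3.49 TPM. H1f10, the replication-independent H1.10, stood at 7.31 ± 2.54 and 9.95 ± 1.151 TPM. The other replication-dependent linker genes H1f1, H1f3, H1f4 and H1f5 had means of 0.305, 0.192, 0.302 and 0.65 TPM. The 3 genes above 1 TPM thus included both replication-independent H1 genes. Germ cell H1 genes were also under 1 TPM, with H1f6 at 0.11 and H1f8 at 0.118 TPM, and H1f7 listed at 0 throughout. H1f9, at 0.245 TPM, lay above the replication-dependent H1f3.

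The median gene stood at 0.302 TPM in class H1, 0.522 in H2B, 0.488 in H4, 0.214 in H3 and 0.13 in H2A. In class H2B, H2bc4 averaged 77.4 TPM, H2bc21 6.41 TPM and H2bc8 2.76 TPM, and the other 14 genes were under 1 TPM, with H2bc15 next at 0.962. In class H4, H4c9 averaged 13.02 TPM and H4c8 1.75 TPM. H4c17 and H4c12 lay just above the 1 TPM filter, at 1.012 and 1.003 TPM. In class H2A, H2ac19 averaged 3.68 TPM, H2ac6 0.685 and H2ac8 0.608. In that class 7 of 18 genes, the pseudogene H2ac14 among them, were listed at 0 in every tumour. Class H3 had no gene clearly above 1 TPM, with H3c8 at 1.01, H3c15 at 0.825, H3c4 at 0.563 and H3c3 at 0.423 TPM. The germ cell genes H2ac1 and H2bc1 were listed at 0 in all 6 tumours.

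A few genes supplied nearly all of the signal. Summed over the 70 genes, histone RNA came to between 411 and 525 TPM per tumour, and H1f0 alone held between 58.8% and 65.5% of it. H1f0, H2bc4 and H1f2 together held between 85.8% and 89.5%, and the 58 genes under 1 TPM between 2.33% and 4.03%. The 43 genes with a stem-loop held between 14.8% and 20.6%, most of it from H1f2. From highest to lowest, the class sums stood in the order H1, H2B, H4, H2A and H3, with medians of 361, 94.3, 19.2, 6.5 and 3.745 TPM. Ranges of neighbouring classes did not overlap, apart from H2A and H3, which ran from 3.47 to 8.22 and from 2.68 to 4.78 TPM.

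Histone variant genes outside the systematic names spanned a wide range, from H2ab1, listed at 0, to H2az1. H3f3a and H3f3b, which encode the replication-independent H3.3, ranged from 608 to 710 and from 627 to 655 TPM. H2az1, which encodes variant H2A.Z, ranged from 948 to 1142 TPM, and Macroh2a1 from 148 to 159 TPM. At the lower end, H2aj averaged 20.8 TPM, Macroh2a2 1.72 TPM and H2bl1 0.08 TPM. H2ax, whose mRNA is known in both a stem-loop and a polyadenylated form, ranged from 50 to 67.9 TPM, and its annotated transcript held the stem-loop too. Among the 12 tested histone genes of the systematic names, H1f0 (mean 297 TPM) lay between Macroh2a1 and H3f3b, H2bc4 (77.4 TPM) lay above the H2ax range, and the other 10 lay at or below its lower end, H1f2 being nearest.

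The labels name a stranded total RNA kit and mention no poly(A) selection. Several other RNAs that lack a poly(A) tail were also low. The RNA component of RNase P (Rpph1) ranged from 1.59 to 16.8 TPM, the telomerase RNA Terc from 0.36 to 0.87 TPM, and the minor spliceosomal RNAs Rnu11 and Rnu12 were listed at 0 in every tumour. Of 15 such RNAs found in the table, 8 averaged under 1 TPM. Higher ones included Snora73b, at between 2.84 and 12.3 TPM, and Rn7s1, at between 4.66 and 114 TPM. Malat1, a nuclear RNA whose end is a triple helix, was the highest of the 15 in every tumour, at between 81.1 and 127 TPM. Whether the libraries kept RNAs without a tail was not tested, and neither was the part of this in the low histone values.

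By neighbouring genes in the GENCODE annotation, 55 of the 70 genes lie in the largest histone cluster and 10 in a second cluster, and the other 5 lie alone. Above 1 TPM were 8 genes of the largest cluster, including H2bc4, H1f2 and H4c9, then H2bc21 and H2ac19 of the second, and H1f0 and H1f10 of those alone. In 65 of 70 genes the transcript has 1 exon. The common poly(A) signal AATAAA, searched on the sense strand in the last 40 bases, was present in 12 of the 70 genes (17.1%), against 57.3% of protein-coding genes. For the 11 histone genes with only coding sequence annotated, no sequence beyond the stop codon was there to be searched. The signal was found in H1f0, H1f2, H1f10 and H2bc21, 4 of the 12 genes above 1 TPM, and in 8 genes below. The annotated end of H1f2 lies 840 bases beyond its stem-loop and that of H4c9 330 bases beyond. Those of H2ac6, H2bc6 and H1f3 lie 2010, 1861 and 4884 bases beyond, at 0.685, 0.805 and 0.192 TPM. TPM divides by transcript length, and the part of annotated length in these values was not tested. The annotation behind the deposited TPM is not given, so the lengths it used may differ from these GENCODE lengths.

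Histone genes are near-copies of each other, and reads can be split between copies or lost. As a measure of this, every window of 50 bases in a transcript was looked up, and the share found in no other GENCODE gene on either strand was taken. The median gene had 48.1% of such windows, and with windows of 100 bases 64.3%. H2ac19 and H2ac18 had 0% at both lengths, and H2ac19 averaged 3.68 TPM while H2ac18 was listed at 0, so their split is uncertain and their sum is the safer value. H4c17, at 10.2%, and H4c12, at 28.5%, are uncertain in the same way. H1f1 and H1f5 had 100% of windows to themselves, H4c14 99.0% and H1f3 97.7%, at 0.305, 0.65, 0.235 and 0.192 TPM. Windows were taken over the whole annotated transcript, which in H4c14 and H1f3 runs on for 1257 and 4884 bases beyond the stem-loop. Of the 11 genes with at least 90%, 8 averaged under 1 TPM, against 58 of all 70, and 4 of those 8 were the germ cell genes H1f6, H1f7, H1f8 and H1f9. The part of shared sequence in the low values was not tested.

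**Figure D2:**
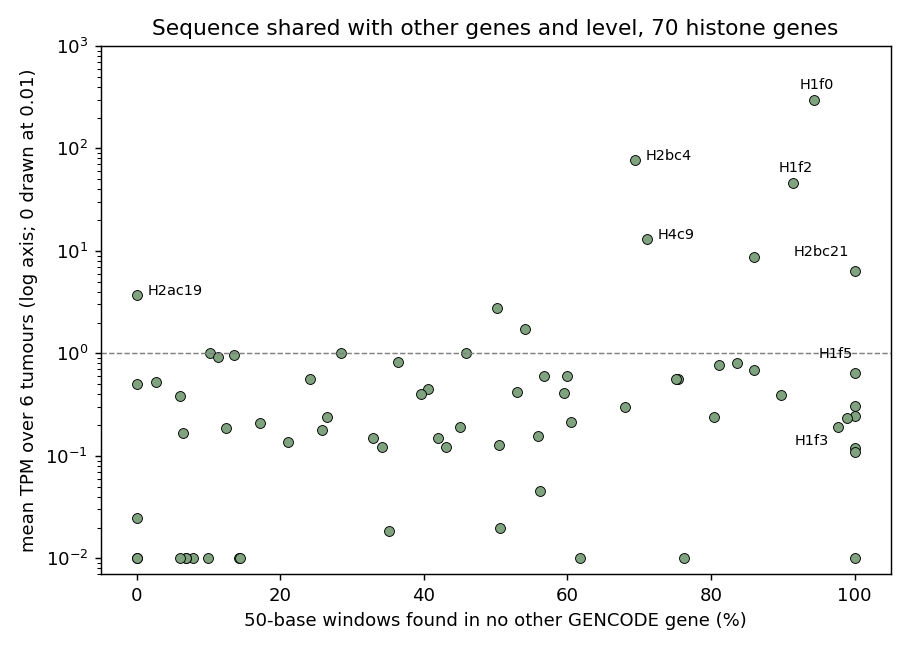
Share of 50-base windows found in no other gene (horizontal axis, %) against mean TPM over the 6 tumours (vertical log axis, genes listed at 0 drawn at 0.01) for the 70 histone genes. H1f0, H1f2 and H2bc21 lie to the right and above 1 TPM, H1f5 and H1f3 lie as far to the right but below it, and H2ac19 stands above 1 TPM at 0%.

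The comparison of FA with PBS addressed whether the folate given to the mice changed histone RNA in the tumours. It was made as log2(TPM + 1) for the 12 histone genes averaging 1 TPM or more, within the limma fit of all 15023 genes. No histone gene was higher or lower at an adjusted p under 0.05, against 0.0% of all genes in either direction, and 0 of 12 had an unadjusted p under 0.05, against 1.28% of all genes (0.686% higher and 0.592% lower with FA). FA and PBS values overlapped for each of the 12 genes, while the groups did not overlap for 4.69% of all genes (2.48% higher and 2.22% lower with FA). The mean was higher in FA for 6 genes and lower for 6, against 7618 and 7405 of all 15023 genes. The median difference of the 12 genes was -0.05, against 0.0016 over all genes. Without FA replicate 3 the median was -0.02, but without FA replicate 1 it was 0.08, without the 8 replication-independent and germ cell genes 0.050, and over the 7 tested genes with a stem-loop 0.10. The sign of the median thus depended on the tumours and genes included. In bulk RNA a smaller share of dividing cells and less RNA per cell cannot be told apart.

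**Figure D3:**
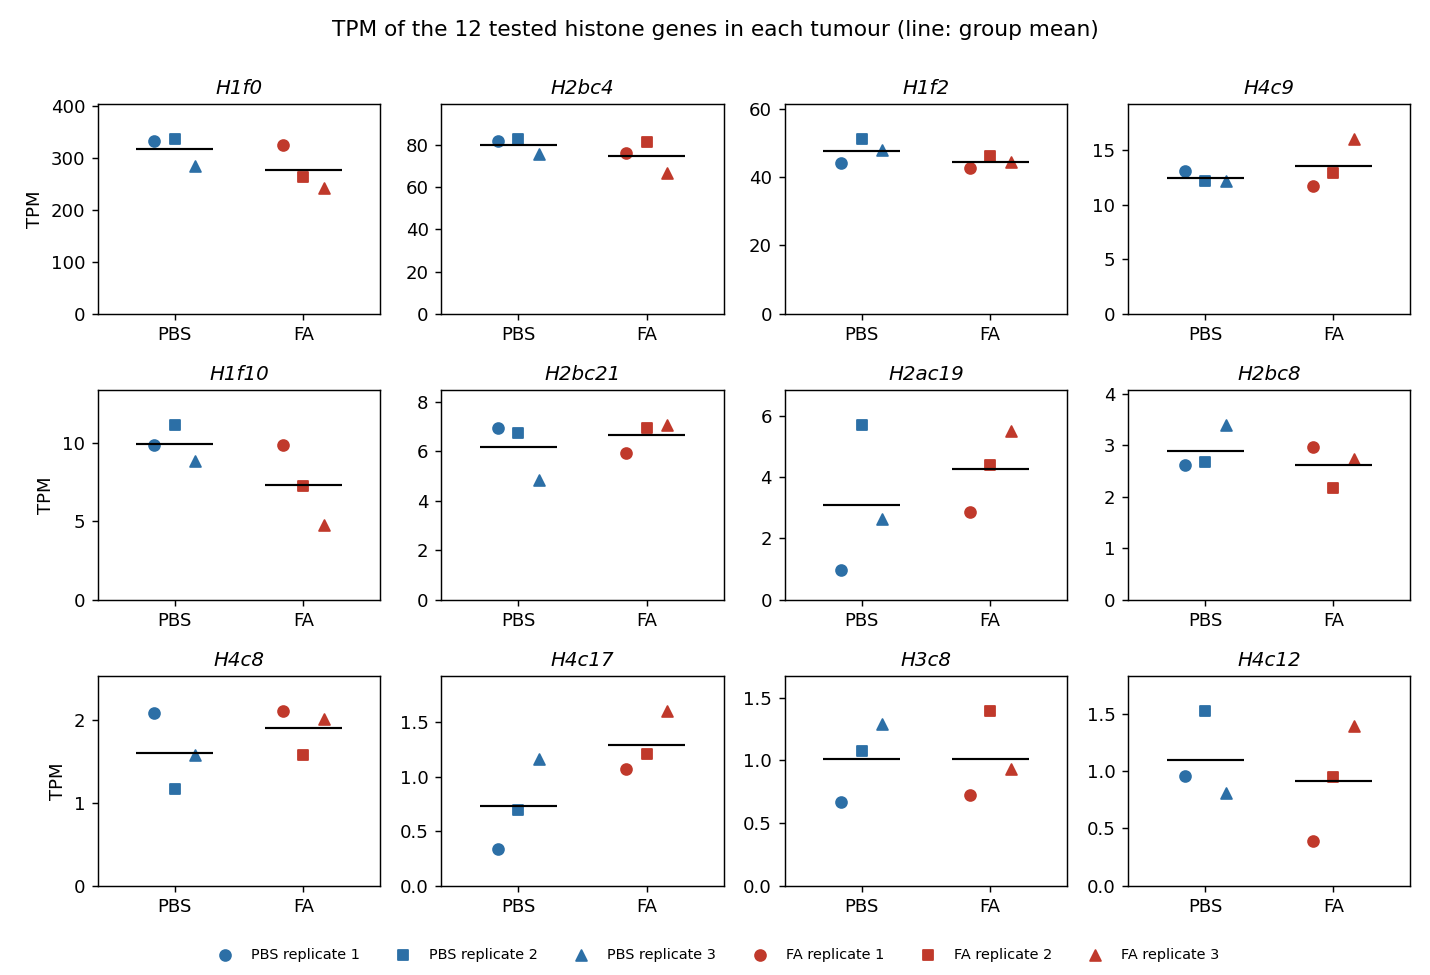
TPM of the 12 tested histone genes in each tumour, with PBS tumours on the left and FA tumours on the right of each panel, symbols for replicates, and lines for group means. Each vertical axis starts at 0. FA and PBS points overlap in every panel, and FA replicate 3 is the lowest tumour for H1f0, H2bc4 and H1f10 and the highest for H4c9, H2bc21 and H4c17.

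All 3 tested linker histone genes had lower means in FA tumours, none past the threshold. H1f0 stood at 324, 264 and 241 TPM in FA replicates 1 to 3 and at 334, 336 and 285 TPM in PBS replicates 1 to 3. FA replicate 1 lay within the PBS range, and the other FA tumours lay below it. The log2 difference was -0.21 ± 0.12 (SE; 95% interval from -0.51 to 0.09; limma, unadjusted p = 0.14, adjusted p = 1). H1f10 stood at 9.87, 7.26 and 4.79 TPM with FA and at 9.89, 11.1 and 8.83 TPM with PBS, with FA replicates 2 and 3 below every PBS tumour. Its difference was -0.44 ± 0.23, with an interval from -0.998 to 0.12. Both genes were lowest in FA replicate 3, the tumour with the most fibroblast, muscle, macrophage and endothelial marker RNA. Without it the differences were -0.12 for H1f0 and -0.20 for H1f10, and the part of those cells in the result was not tested. H1f2 stood at 42.7, 46.2 and 44.4 TPM with FA and at 44.1, 51.0 and 48.0 TPM with PBS, with FA replicate 1 below the PBS range and the other FA tumours inside it. Its difference of -0.10 ± 0.08 had an interval from -0.29 to 0.09, and was -0.10 without FA replicate 3.

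Among the H2B genes, H2bc4 stood at 76.1, 81.3 and 66.8 TPM with FA and at 81.7, 82.7 and 75.9 TPM with PBS. FA replicate 3 was the lowest and the other FA tumours lay inside the PBS range. The log2 difference was -0.10 ± 0.09, with an interval from -0.32 to 0.11, and -0.03 without FA replicate 3. H2bc21 stood at 5.91, 6.96 and 7.05 TPM with FA and at 6.96, 6.75 and 4.82 TPM with PBS, with PBS replicate 3 the lowest. Its difference was 0.10 ± 0.16, with 0.06 lacking FA replicate 3 and -0.04 lacking PBS replicate 3. H2bc21 encodes an H2B of the second cluster. For H2bc8 the levels were 2.97, 2.17 and 2.73 TPM in FA and 2.61, 2.67 and 3.39 TPM with PBS, and the difference was -0.10 ± 0.16, or -0.13 without FA replicate 3.

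H4 genes varied in both directions. H4c9, which codes for the same kind of H4 protein as the other H4 genes, stood at 11.7, 12.9 and 16 TPM with FA and at 13.1, 12.15 and 12.18 TPM with PBS. FA replicate 3 was the highest and FA replicate 1 the lowest of the 6. The difference was 0.10 ± 0.13, with an interval from -0.21 to 0.41, and -0.02 without FA replicate 3. H4c8 was at 2.10, 1.57 and 2.01 TPM with FA and at 2.08, 1.16 and 1.57 TPM with PBS, a difference of 0.16 ± 0.19, or 0.13 without FA replicate 3. H4c17 was at 1.07, 1.21 and 1.6 TPM with FA and at 0.34, 0.69 and 1.16 TPM with PBS. PBS replicate 3 lay among the FA values, and the difference of 0.43 ± 0.23 had an interval from -0.11 to 0.97 (limma, unadjusted p = 0.103, adjusted p = 1) and was 0.33 without FA replicate 3. H4c12 was at 0.39, 0.95 and 1.39 TPM with FA and at 0.96, 1.52 and 0.81 TPM with PBS, a difference of -0.15 ± 0.26, which was -0.33 without FA replicate 3 and 0.06 without FA replicate 1. The sign for H4c12 and H4c9 thus rested on single tumours.

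In classes H2A and H3 a single gene each could be tested. H2ac19 stood at 2.86, 4.41 and 5.50 TPM with FA and at 0.98, 5.69 and 2.63 TPM with PBS. The PBS tumours alone spanned the whole FA range, and the difference of 0.50 ± 0.44 had the widest interval of the 12 genes, from -0.56 to 1.56. It was 0.33 without FA replicate 3 and 0.06 without PBS replicate 1. H3c8 was at 0.72, 1.39 and 0.93 TPM with FA and at 0.67, 1.07 and 1.29 TPM with PBS, with a difference of 0.0011 ± 0.21 that turned negative under 2 of 3 rescalings, and an interval from -0.50 to 0.50. Without FA replicate 3 it was 0.02. Changes of that size in either direction are within what these 6 tumours leave undecided for H3c8. For H1f2 and H2bc4, the most precisely measured, the intervals ended at -0.29 and -0.32.

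**Figure D4:**
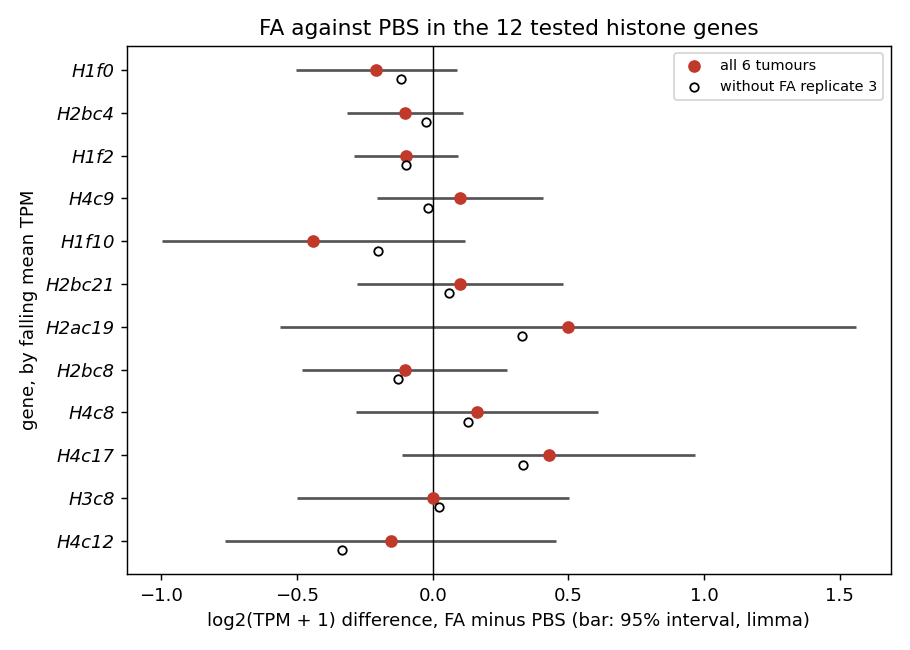
Log2(TPM + 1) difference of FA minus PBS for the 12 tested histone genes, ordered by falling mean TPM, with 95% intervals from limma and open points for the value without FA replicate 3. All 12 intervals span 0, the widest being that of H2ac19, and the open points of H1f0, H2bc4 and H1f10 lie closer to 0 than the filled ones.

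Sums over genes are less affected by how reads are split between copies. Over all 70 genes the sum was 496, 448 and 411 TPM with FA and 515, 525 and 464 TPM with PBS. FA replicates 2 and 3 were below every PBS tumour, and FA replicate 1 was within the PBS range. On the log2 scale the mean sum was lower in FA by 0.15, with a spread between tumours of 0.12 (SD), and without FA replicate 3 the difference was -0.09. Most of this was H1f0. Without H1f0 the sums of the other 69 genes were 171, 184 and 169 TPM with FA and 181.5, 189 and 179 TPM with PBS, which is -0.07 on the log2 scale, or -0.05 without FA replicate 3. The 62 genes without the 8 replication-independent and germ cell genes gave -0.05, or -0.04 without FA replicate 3. The 43 genes with a stem-loop gave -0.0097, or -0.05 without FA replicate 3, at 73.6, 82.0 and 84.8 against 76.3, 83.8 and 81.7 TPM. These sums were compared as values, with no test.

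By class, the H1 sum differed by -0.20 between FA and PBS on the log2 scale, the H2B sum by -0.09, the H4 sum by 0.09, the H3 sum by 0.12 and the H2A sum by 0.42. The spread between tumours of a group was 0.16, 0.08, 0.16, 0.34 and 0.44 in the same order. The H1 and H2B differences were thus slightly larger than that spread and the other 3 smaller. Without FA replicate 3 the H1, H2B and H2A differences were -0.12, -0.03 and 0.31, and those of H4 and H3 turned to -0.01 and -0.0058. The 58 genes under 1 TPM, which together hold most of the replication-dependent names, summed to 14.8, 17.3 and 16.3 TPM in FA and to 18.1, 12.2 and 18.7 TPM with PBS, which differ by 0.0035 on the log2 scale, or by -0.0062 without FA replicate 3.

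**Figure D5:**
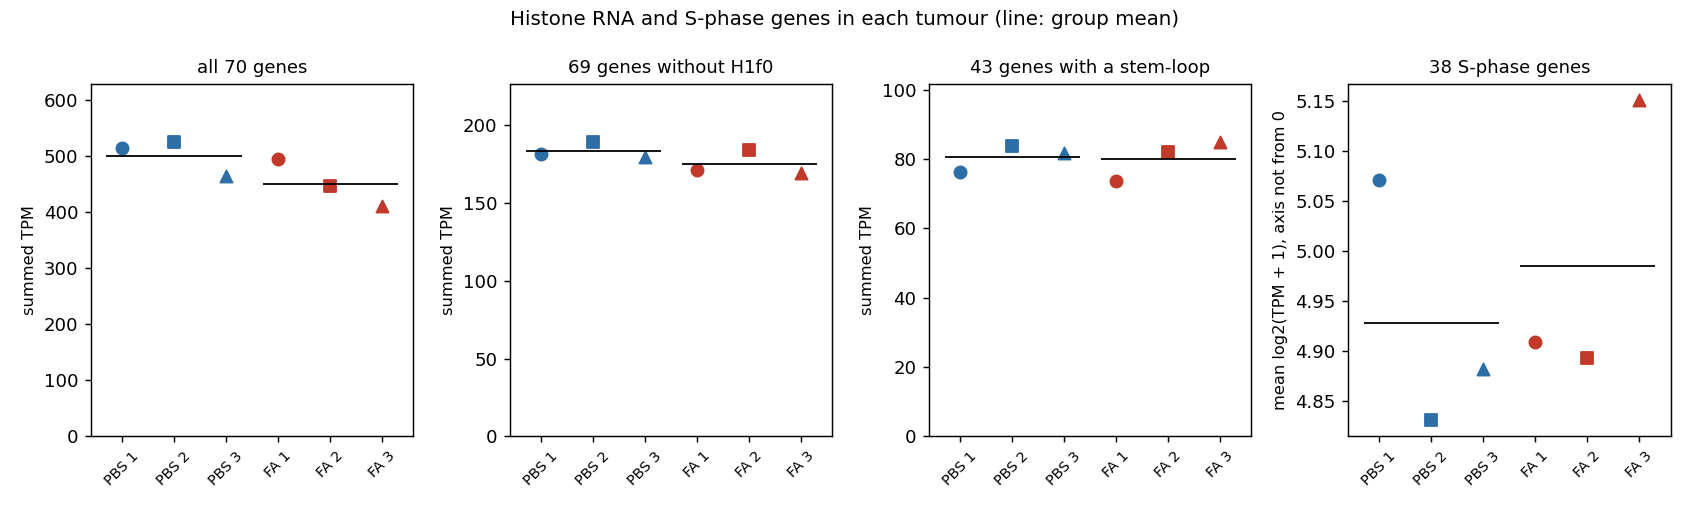
Summed TPM in each tumour for all 70 histone genes, the 69 genes without H1f0 and the 43 genes with a stem-loop (axes from 0), and the mean log2(TPM + 1) of 38 S-phase genes (axis not from 0), with group means as lines. FA replicate 3 has the lowest sum over all 70 genes and the highest S-phase value, while its stem-loop sum of 84.8 TPM is the highest of the 6.

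Histone mRNA is made in S phase, so its level was set beside that of DNA replication genes. The mean log2(TPM + 1) of 38 S-phase genes was 4.91, 4.89 and 5.15 with FA and 5.07, 4.83 and 4.88 with PBS, with FA replicate 3 the highest and PBS replicate 1 next. The log2 sum of the 70 histone genes, most of it from replication-independent H1f0, moved the other way in FA replicate 3, the tumour lowest for that sum. The sum over the 43 genes with a stem-loop was instead highest in FA replicate 3, at 84.8 TPM. For the 70 genes, the difference between the log2 histone sum and the S-phase value was 4.04, 3.91 and 3.53 with FA and 3.94, 4.21 and 3.98 with PBS. FA minus PBS it came to -0.21, and to -0.06 without FA replicate 3. With the 62 replication-dependent names in place of the 70 genes, the values were 2.42, 2.57 and 2.21 with FA and 2.34, 2.64 and 2.53 with PBS, again lowest in FA replicate 3. The sum of those 62 genes itself was lowest in FA replicate 1, at 161 TPM, against 164 TPM in FA replicate 3. The difference of the values relative to S-phase genes, FA minus PBS, was -0.11, and -0.01 without FA replicate 3.

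The proliferation genes themselves showed no difference past the threshold. Over all 15023 genes tested, 7618 had a higher mean in FA and 7405 a lower one. Among 38 S-phase genes, 27 had a higher mean in FA and 11 a lower one, with 0 called in either direction by limma, 0 at an unadjusted p under 0.05 and a median difference of 0.05, or -0.03 without FA replicate 3. Pcna, the sliding clamp of DNA polymerase, stood at 162, 154 and 194 TPM with FA and at 187.5, 158 and 152 TPM with PBS. Mitotic genes had 17 higher and 3 lower means of 20, with 0 called and a median difference of 0.07, or -0.02 without FA replicate 3. FA replicate 3 was the highest tumour for 23 of the S-phase genes and 17 of the mitotic genes, against 4421 of all 15023 genes. Mki67, a marker of cycling cells, ranged from 34.6 to 38.95 TPM with FA and from 32.0 to 41.3 TPM with PBS.

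Factors that transcribe histone genes were present at moderate levels. Npat, the cyclin E-CDK2 substrate that organises histone transcription, was at 11.7, 10.3 and 8.71 TPM with FA and at 10.4, 9.49 and 9.98 TPM with PBS, so its groups overlapped. Hinfp, a zinc finger factor that binds H4 promoters, was at 31.4, 27.9 and 23.5 TPM in FA and at 25.6, 23.8 and 23.1 TPM with PBS, and differed by 0.18 ± 0.12 on the log2 scale, or by 0.28 without FA replicate 3. Of the 16 genes of this list 11 had a higher mean in FA and 5 a lower one, 0 were called by limma, 0 had an unadjusted p under 0.05, and the median difference was 0.03, or 0.05 without FA replicate 3.

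Genes of the machinery that makes and removes histone mRNA differed widely in level. Slbp, which binds the stem-loop shown above, was at 45.15, 46.4 and 49.1 TPM with FA and at 48.7, 46.0 and 46.7 TPM with PBS. The U7 RNP protein genes Lsm10 and Lsm11 ranged from 18.8 to 23.0 and from 3.21 to 4.61 TPM over the 6 tumours. Casp8ap2, the FLASH protein of the cleavage complex, ranged from 9.29 to 11.6 TPM, and Zfp473, a zinc finger protein bound to it, averaged 0.903 TPM, below the filter. The nuclease gene Cpsf3, which makes the cut, ranged from 70.7 to 87.8 TPM, and Eri1, an exonuclease that trims the stem-loop, from 18.6 to 24.2 TPM. Of 29 tested genes in this list of 30, 13 had a higher mean in FA and 16 a lower one. By limma 0 were called and 0 had an unadjusted p under 0.05, and the median difference was -0.02, or 0.03 without FA replicate 3.

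Chaperones receive new histones before they are built into chromatin. The H3-H4 chaperone gene Asf1b was at 18.4, 18.4 and 29.8 TPM with FA and at 23.8, 16.7 and 18.15 TPM with PBS, highest in FA replicate 3. Chaf1a and Chaf1b, subunits of the chromatin assembly factor that follows the replication fork, ranged from 11.7 to 16.3 and from 22.9 to 26.6 TPM. Nasp, which stores soluble histones H3 and H4, ranged from 48.5 to 58.6 TPM. Among 22 chaperone genes 12 had a higher and 10 a lower mean in FA, with 0 called by limma, 0 at an unadjusted p under 0.05 and a median difference of 0.01. The 9 tested histone variants outside the systematic names had 4 higher and 5 lower means, 0 called, and a median difference of -0.02. Cdkn1a, the p53 target that halts the cycle before S phase, ranged from 22.25 to 54.4 TPM with FA and from 30.6 to 37.9 TPM with PBS, and 0 of 12 genes in its list were called.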

How the data were processed

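The authors deposited 1 table of TPM for 6 tumours, and per the submitters' processing notes FastQC, STAR, featureCounts and RSEM were used, without versions or roles. The build is not given in the sources used here and coordinates are therefore left out. Each column name matched 1 sample description, whose prefix differs between FA and PBS and cannot be told apart from treatment. Per the labels' protocols, 4 µg of RNA and 12 PCR cycles were used. TPM is not a count, so no count test was run.

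Values were fitted as log2(TPM + 1), which understates changes of low genes, with limma 3.58.1 in R 4.3.3 for genes averaging 1 TPM or more (trended empirical Bayes, Benjamini-Hochberg over all 15023 genes, threshold 0.05). A limma fit was also run on simulated data. GENCODE M21 held 94.1% of the table's identifiers.

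The members and lists were chosen with earlier results of these data known. Named genes were the 4 highest of each class, all H1 and germ cell genes, up to 5 per direction by smallest unadjusted p, and for other lists the 4 highest plus a fixed set, of which those that bear on histones are printed. H2bc3, H2bc6, H4c2, H4c14, H2ac14 and H2ac18 were chosen after their values were seen. So were the RNAs Rpph1, Terc, Rnu11 and Rnu12, and the variants H2ab1, H2aj, H2bl1 and Macroh2a2.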

Additional observations from a re-analysis of the deposited data

How the results depend on the processing

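No histone gene and no gene of the other 8 lists was called in any alternative that was run. Those were pseudocounts of 0.1 and 0.5, no filter, a mean of at least 5 TPM, 3 rescalings, array weights, the replicate block, and leaving out each tumour. Over all genes, 2 were called higher without the filter, and from 0 to 1 lower when tumours were left out singly, the 1 arising without FA replicate 3. The median difference of tested histone genes, -0.05, ran from -0.11 to 0.08 when 1 tumour was left out, the highest without FA replicate 1 (0.082). It was 0.050 without the replication-independent and germ cell genes, and 0.10 over the 7 tested genes with a stem-loop (chosen after seeing the data). With a mean of at least 5 TPM, which kept 6 histone genes, it was -0.10. The median thus depended on which genes entered. The log2 difference of the histone sum ran from -0.22 to -0.09 and that relative to S-phase genes from -0.32 to -0.06 over left-out tumours, both nearest 0 without FA replicate 3 and farthest without FA replicate 1. The sum over genes with a stem-loop, also chosen after seeing the data, differed by -0.0097. With the replicate number as a block, the median stayed at -0.05 and no call changed. Correlations of same-numbered deviations were -0.21, 0.05 and -0.02. The labels state no pairing by number, and these correlations, each from 1 tumour per group, cannot exclude one. The sums and the value relative to S-phase genes were not run under filters, array weights or quantile normalization, and pseudocounts do not enter the sums. The direction changed in at least 1 alternative for 4 of the 12 genes, namely H2bc21, H3c8, H4c9 and H4c12. The read depth behind these values is unknown, and so is the limit it sets.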

Other observations

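Rn7s1, a gene for the RNA of the signal recognition particle, was at 114 TPM in PBS replicate 3 and 37.2 TPM in FA replicate 3, and at between 4.66 and 6.96 TPM in the other 4 tumours. Rn7s2 was listed with the same values as Rn7s1 in every tumour. Rpph1 was likewise highest in PBS replicate 3, at 16.8 TPM, and so was Rmrp, the RNA of RNase MRP, at 15.6 TPM, which stood at 0.36 TPM in FA replicate 3. The 43 histone genes with a stem-loop summed to 84.8 TPM in FA replicate 3, the highest of the 6. Their sum of 81.7 TPM in PBS replicate 3 lay below those in PBS replicate 2 (83.8 TPM) and FA replicate 2 (82.0 TPM). In FA replicate 1 and PBS replicate 1 it was 73.6 and 76.3 TPM. These RNAs were chosen after their values were seen.

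The stem-loop letters also occurred in 13 protein-coding genes outside the systematic histone names, chosen here after their values were seen. Of these, 9 averaged at least 1 TPM. They included the histone gene H2aw, at between 6.63 and 7.48 TPM, and Syncrip, an RNA-binding protein gene, at between 134 and 154 TPM, while H4f16 averaged 0.0467 TPM and H2bu2 0.738 TPM.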
